A study of Homo sapiens with 12 samples.

Results

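The 31 genes described here belong to the ATF4 program and the unfolded protein response. They were taken by gene symbol from the deposited count table, which lists 58051 genes. The rule itself uses no measured value, but the genes were chosen with earlier results of these data known. They fall into 7 genes of amino acid supply, 10 genes of the CHOP branch and 14 genes of the endoplasmic reticulum (ER), namely chaperones and genes of ER-associated degradation. The RNA came from MDA-MB-231, an established line of triple-negative breast cancer cells, after transfection with pools of siRNA. The 4 groups were a non-targeting pool (siControl), a pool against NELFA, a subunit of the complex that holds RNA polymerase II paused near promoters (siNELFA), a pool against YAP1, the coactivator of the Hippo pathway (siYAP), and both pools together (siNELFA+siYAP), with 3 libraries each. All groups received DharmaFECT reagent, so the reagent and the transfection itself are common to the controls. The siRNA dose is stated as 50 to 100 nM without the dose of each group. Whether siNELFA+siYAP, with both pools, carried the same siRNA load as siControl is therefore not known. The labels name 48 h and 72 h for RNA extraction without saying which library is which, and the study's methods give 72 h and independent biological replicates for the sequencing. One cell line and a transient knockdown limit what the groups can stand for, and in bulk RNA fewer cells with a transcript and less transcript per cell cannot be told apart.

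Unfolded proteins in the ER activate the sensors PERK, IRE1 and ATF6. PERK, like the other kinases that sense amino acid shortage, haem shortage or double-stranded RNA, phosphorylates eIF2, which lowers general translation and favours translation of the ATF4 mRNA. ATF4 then activates genes for amino acid uptake and synthesis and, with sustained stress, DDIT3 (CHOP) and its partners. IRE1 splices the XBP1 mRNA and ATF6 is cut into an active factor, and both raise chaperones and the machinery that returns misfolded proteins to the cytosol for degradation. ATF4 and ATF6 are controlled after transcription and XBP1 by splicing, so gene-level counts do not measure their activity.

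The promoters of these genes are known for short elements that bind the factors of the response. RefSeq promoters on GRCh38.p14, from 250 bases before to 50 bases after the start, were matched for 28 of the 31 genes, with none for NUPR1, PSPH and SHMT2. The ER stress element (ERSE: CCAAT, 9 bases, CCACG, searched on both strands) was present in 5 of the 28, all of them ER genes (HSPA5, CALR, HSP90B1, CRELD2 and XBP1), and in 0.0806% of all 27305 promoters. ERSE-II (ATTGG, 1 base, CCACG) was present in HERPUD1, HYOU1 and SDF2L1, and in 0.0549% of all promoters. The composite C/EBP-ATF element TGATGNAA was found in ASNS, SLC3A2, CHAC1 and HERPUD1, and in 3.67% of all promoters. The core TGACGTG of the unfolded protein response element was found in HYOU1, where it shares bases with an ERSE-II (2.00% of all), and the core TGACGTCA of the cAMP response element in PPP1R15A (1.98% of all). These are matches of letters and not measured binding, and a link between the elements and the expression changes was not tested. The windows below are those of 6 genes on which the later results turn or whose element is the textbook example, 5′ to 3′ on the strand of the motif, with the motif in capitals.
HSPA5 (ERSE, chr9:125241386-125241414, minus strand): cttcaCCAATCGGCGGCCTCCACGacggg
CALR (ERSE, chr19:12938379-12938407, minus strand): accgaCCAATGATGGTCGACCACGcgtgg
CRELD2 (ERSE, chr22:49918549-49918577, minus strand): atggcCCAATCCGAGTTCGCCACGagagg
HERPUD1 (ERSE-II, chr16:56932016-56932044, plus strand): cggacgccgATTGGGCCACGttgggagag
HERPUD1 (C/EBP-ATF composite, chr16:56931955-56931984, minus strand): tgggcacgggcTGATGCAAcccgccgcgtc
ASNS (C/EBP-ATF composite, chr7:97872458-97872487, minus strand): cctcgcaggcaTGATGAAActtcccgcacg
SLC3A2 (C/EBP-ATF composite, chr11:62881725-62881748, minus strand): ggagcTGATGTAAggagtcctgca
The HSPA5 element lies 66 to 48 bases before the start, and the ASNS element 68 to 61 bases before it. The SLC3A2 match lies 38 to 45 bases after the start.

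The libraries held between 9608145 and 18803104 counts, and all 31 genes passed the filter on low counts in every comparison. The targeted genes were reduced. NELFA had 26.9 ± 1.36 CPM (counts scaled to library size by the trimmed mean of M values, with SD and n = 3) in the siControl libraries. It had 8.69 ± 1.45 CPM after siNELFA, 27.0 ± 5.98 CPM after siYAP and 7.08 ± 0.975 CPM after siNELFA+siYAP. YAP1 was at 272 ± 27.8, 264 ± 24.1, 43.0 ± 4.72 and 41.6 ± 2.15 CPM in the same order. Replicate 1 differed strongly from replicates 2 and 3 in each group other than siNELFA+siYAP, with a biological coefficient of variation of 0.351 to 0.365 over 3 libraries and 0.125 to 0.155 over replicates 2 and 3. MALAT1, chosen after its values were seen, took 3.14% to 4.41% of the counts in those libraries. Of the luminal epithelial markers, EPCAM, KRT19 and CDH1 (3 of 5) were above replicates 2 and 3 in replicate 1 of all these groups, and the summed level of the list was 128 to 170.4 TPM there against 60.0 to 97.7 TPM in the others, with ESR1 and PGR near 0 in all libraries. CDH1 stood at 16.2 to 46.9 CPM in those replicate 1 libraries and at 0 to 0.934 CPM in the other libraries of the 3 groups. The line's own markers VIM, CD44, EGFR and AXL summed to 1927 to 2438 TPM in all libraries, with VIM and AXL below and CD44 above in replicate 1 of the same 3 groups. Of the immune markers, CD3E and MS4A1 had 0 counts throughout and PTPRC at most 4 counts. CD68, a lysosomal protein that carries the sum of that list, was below in replicate 1 of the 3 groups, and the sum was 74.9 to 80.7 TPM in siControl and 126 to 155 TPM in siNELFA+siYAP. The endothelial PECAM1 was above in replicate 1 of the 3 groups, in a list of at most 2.68 TPM, and the fibroblast list summed to at most 2.19 TPM. The part of these differences in the results was not tested. Libraries with the same number deviated together in these 3 groups, so fits with the replicate number as a block are given beside those without it. For siNELFA+siYAP this coefficient was 0.0615. Its library names carry one shared number followed by an index, so whether they are separate cultures is not certain and p-values that use them may measure technical spread.

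The levels of the genes spanned a wide range. On the authors' TPM scale, which corrects for length and so allows genes to be compared, CALR, the calcium-binding lectin chaperone of the ER, was highest in siControl with 1182 ± 311 TPM (SD, n = 3). HSP90B1, the HSP90 of the ER, followed with 735 ± 365 TPM, then HSPA5 (BiP), its main HSP70 chaperone, with 392 ± 74.6 TPM. The SDs of CALR and HSP90B1 overlapped. PDIA4, MANF, SLC3A2, ATF4 and HYOU1 came next between 112 and 189 TPM, with SDs that overlapped between neighbours in the order. The lowest were PHGDH, the first enzyme of serine synthesis (3.68 ± 1.99 TPM), SESN2 (3.12 ± 1.11), CHAC1, which degrades glutathione (1.61 ± 1.40), and STC2, a secreted glycoprotein (0.246 ± 0.153). STC2 averaged 15.6 counts a library and CHAC1 41.6, so their fold changes are imprecise.

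**Figure D1:**
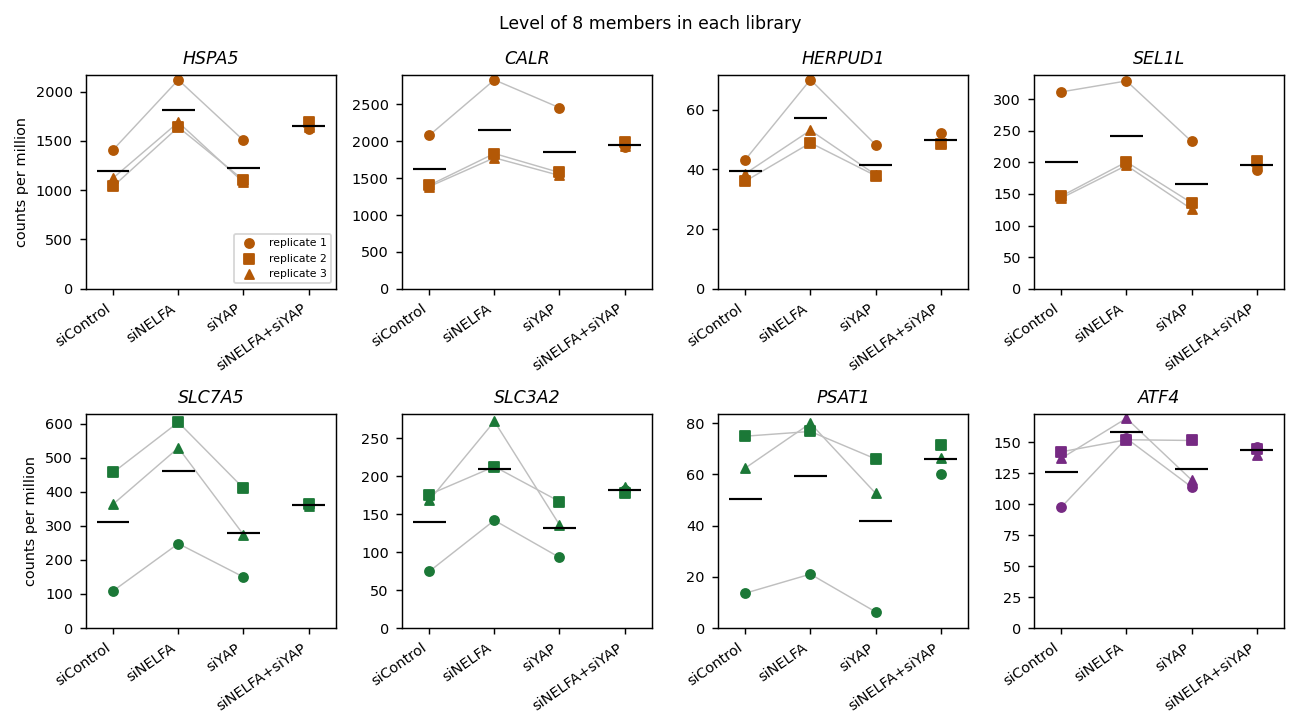
CPM of 8 genes in each of the 12 libraries by siRNA group; points are libraries, lines join libraries with the same replicate number in siControl, siNELFA and siYAP, and bars are group means. HSPA5 is higher in every siNELFA library than in any siControl library, whereas the level of SLC7A5 depends strongly on the replicate number.

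Replicate 1 was read first, because it moved the 3 subgroups differently. All 7 genes of amino acid supply were lower in replicate 1 than in the mean of replicates 2 and 3 in siControl, siNELFA and siYAP, with median log2 ratios of -1.41, -1.07 and -0.94. PSAT1, the aminotransferase of serine synthesis, was at 13.6 CPM in siControl replicate 1 and at 75.0 and 62.5 CPM in replicates 2 and 3. Of the 14 ER genes, 9 were above and 4 were below (DNAJC3, SDF2L1, CRELD2 and HYOU1) in all 3 groups. HSP90B1 was at 2212, 995 and 943 CPM in siControl replicates 1 to 3. In the CHOP branch CEBPB, NUPR1 and VLDLR were above and ATF4, TRIB3, CHAC1, SESN2 and PPP1R15A below. NUPR1, a stress-induced chromatin protein, reached 11.5, 22.2 and 12.1 CPM in replicate 1 of siControl, siNELFA and siYAP and lay between 0.989 and 1.42 CPM in their other libraries. Over all 12971 genes averaging at least 50 counts, 31.9% were above and 37.1% below in all 3 groups. In siNELFA+siYAP the amino acid genes did not share the pattern (median log2 ratio -0.01).

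**Figure D2:**
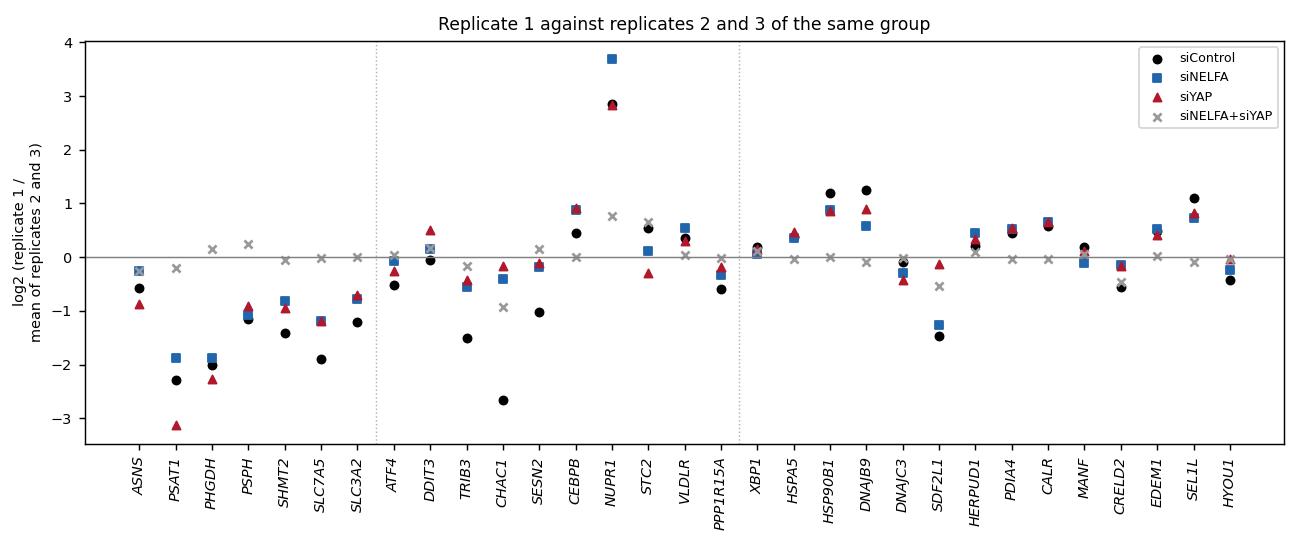
Log2 ratio of replicate 1 to the mean of replicates 2 and 3 (CPM + 0.5) for the 31 genes in each group. Points of siControl, siNELFA and siYAP lie below 0 for all 7 amino acid genes, and above 0 for 9 of the 14 ER genes.

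The first question was whether loss of NELFA moved these genes. In siNELFA the ER chaperones HSPA5 and CALR, the degradation factor HERPUD1 and both chains of the large amino acid transporter, SLC7A5 and SLC3A2, stood above siControl in all 3 replicate pairs. Those 5 genes rose in the fit with the replicate block, by 1.32-fold for CALR to 1.62-fold for SLC7A5. In all 3 pairs 19 of the 31 genes were higher, against 25.2% of the 12971 genes averaging at least 50 counts. Under the block 5.21% of all genes passed the adjusted threshold. The CHOP branch held no gene past the adjusted threshold in that fit, while ATF4 and CHAC1 passed when genes with low counts were kept. Without the block no gene of the 31 passed.

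In the GENCODE annotation the HSPA5 gene (ENSG00000044574) lies at chr9:125234853-125241382 on the minus strand of GRCh38. HSPA5 had 1410.1, 1039 and 1123 CPM in siControl replicates 1 to 3 and 2118, 1639 and 1689 CPM in siNELFA. Its lowest siNELFA library lay above its highest siControl library. The ratio within a pair was nearly the same each time, with log2 values of 0.59, 0.66 and 0.59. The log2 fold change was 0.61 (SE 0.19) without the block, at a nominal p of 0.0137 and an adjusted p of 1.00 by edgeR's quasi-likelihood test with Benjamini-Hochberg adjustment. With the block it was 0.61 (SE 0.08, adjusted p = 0.00183 by the same test). HERPUD1, a membrane protein of the degradation complex, had 43.2, 36.1 and 38.6 CPM in siControl and 70.1, 48.9 and 53.1 CPM in siNELFA, again without overlap. With the block its log2 fold change was 0.53 (SE 0.12, edgeR adjusted p = 0.0260).

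CALR had 2079.7, 1403 and 1385 CPM in siControl and 2832, 1834 and 1776 CPM in siNELFA. The groups overlapped because replicate 1 was the highest library in both, while each pair rose by log2 0.36 to 0.45. The blocked log2 fold change was 0.40 (SE 0.08, edgeR adjusted p = 0.0153). Of the other ER genes, SEL1L, which scaffolds the ubiquitin ligase of ER-associated degradation, had a blocked value of 0.33 (adjusted p = 0.0905) and HYOU1, a large HSP70-type chaperone, one of 0.26 (adjusted p = 0.125), and neither passed. In all, 3 of 14 ER genes passed under the block, against 5.21% of all genes. In all pairs 10 of the 14 were higher and 1 lower (SDF2L1). Of the 12971 genes averaging at least 50 counts, 25.2% were higher and 23.8% lower in all pairs.

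SLC7A5, the light chain of the transporter for large neutral amino acids, had 109, 457 and 364 CPM in siControl and 248, 604 and 529 CPM in siNELFA. Its groups overlapped widely and the pairs differed in size, with log2 ratios of 1.18, 0.40 and 0.54. SLC3A2, the heavy chain, had 74.5, 176 and 168 CPM in siControl and 142, 213 and 272 CPM in siNELFA, with log2 pair ratios of 0.93, 0.27 and 0.70. The blocked log2 fold changes were 0.70 (SE 0.13, edgeR adjusted p = 0.00881) for SLC7A5 and 0.63 (SE 0.12, adjusted p = 0.0110) for SLC3A2. PSPH, the last enzyme of serine synthesis, was the only amino acid gene lower in all pairs. It had 15.6, 38.1 and 31.9 CPM in siControl and 11.4, 27.8 and 21.1 CPM in siNELFA. Its blocked value of -0.50 did not pass by edgeR (adjusted p = 0.0628), but PSPH passed by DESeq2 with the block. ASNS, which makes asparagine, PSAT1, PHGDH and the serine hydroxymethyltransferase SHMT2 did not pass.

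In the CHOP branch, ATF4 had 97.5, 142 and 137 CPM in siControl and 153, 152 and 169 CPM in siNELFA. The groups did not overlap, and the blocked log2 fold change of 0.35 did not pass (adjusted p = 0.1004). DDIT3, the factor CHOP itself, was at 12.1 ± 0.360 CPM in siControl and 11.9 ± 1.19 CPM in siNELFA (SD, n = 3), and its pairs went in both directions. CHAC1 had 0 counts in siControl replicate 1, so its pair 1 ratio is at least 8.45-fold against a floor of 3 counts, beside 1.36-fold and 1.49-fold in the other pairs. TRIB3, a pseudokinase that damps the response, and SESN2, a sensor of leucine, were each higher in 2 of 3 pairs. PPP1R15A, which returns eIF2 to its unphosphorylated form, had 116, 157 and 194 CPM in siControl and 155, 171 and 219 CPM in siNELFA, and did not pass.

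None of the remaining genes passed the adjusted threshold in siNELFA or siYAP against siControl with all libraries and the filter on low counts. Of the genes with an ERSE or ERSE-II, HSPA5, CALR and HERPUD1 had passed in siNELFA under the block. HSP90B1 (0.016), XBP1 (0.13), SDF2L1 (-0.26), HYOU1 (0.26) and CRELD2 (0.35), with blocked log2 fold changes in brackets, had not. XBP1, the factor whose mRNA IRE1 splices, had 79.0, 66.6 and 72.1 CPM in siControl, 80.9, 76.9 and 79.3 CPM in siNELFA, 81.7, 72.0 and 74.9 CPM in siYAP and 86.2, 85.2 and 74.2 CPM in siNELFA+siYAP. MANF, a secreted protein that binds HSPA5, was among the steadiest genes, between 75.3 and 93.5 CPM over the 12 libraries. HYOU1 had 324, 404 and 461 CPM in siControl, 421, 516 and 482 CPM in siNELFA, 427, 411 and 459 CPM in siYAP and 512, 519.9 and 524 CPM in siNELFA+siYAP. The siNELFA+siYAP libraries were thus above all siControl and siYAP libraries, and the siNELFA libraries overlapped with both. SDF2L1, a luminal partner of the DNAJ chaperones, was the only ER gene lower in all pairs in siNELFA. It had 2.51, 7.31 and 6.19 CPM against 2.70, 7.75 and 8.94 CPM in siControl. The log2 pair ratios were -0.11, -0.08 and -0.53, at low counts.

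CEBPB and VLDLR, the very low density lipoprotein receptor, differed more between replicate numbers than between the group means. CEBPB had 136, 89.1 and 109 CPM in siControl, 188, 97.1 and 108 CPM in siNELFA and 202, 93.9 and 121 CPM in siYAP, with replicate 1 highest in each, while siNELFA+siYAP lay between 121 and 126 CPM. VLDLR lay between 21.6 and 37.0 CPM in all libraries. TRIB3 had 8.76, 23.9 and 27.6 CPM in siControl and 27.0, 31.3 and 29.0 CPM in siNELFA+siYAP, where only replicate 3 of siControl overlapped. SESN2 had 5.19, 10.7 and 11.3 CPM in siControl and 14.1 ± 1.12 CPM (SD, n = 3) in siNELFA+siYAP, whose lowest library, at 12.8 CPM, lay above siControl. PHGDH stayed between 1.34 and 1.88 CPM in replicate 1 of siControl, siNELFA and siYAP and between 6.65 and 10.7 CPM in all other libraries.

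The summed levels show the same by list. The 7 genes of amino acid supply together had 288, 918 and 799.8 CPM in siControl, 518, 1082 and 1053 CPM in siNELFA, 345, 846 and 639 CPM in siYAP and a mean of 771 ± 9.41 CPM (SD, n = 3) in siNELFA+siYAP. Replicate 1 was the lowest library by far in the first 3 groups. The 14 ER genes together had 7501, 4909.7 and 4969 CPM in siControl and 8955, 6358 and 6176 CPM in siNELFA, a step up in each pair, beside 7669, 5292 and 5046 CPM in siYAP. CALR, HSPA5 and HSP90B1 carry most of that sum. The CHOP branch had 422, 461 and 527 CPM in siControl and 599.7, 496 and 584 CPM in siNELFA.

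Read against all genes, the fit without the block called 0 of 31 genes past the adjusted threshold by edgeR, where 0.00564% of 17727 genes were called, and 0 by DESeq2. At nominal p under 0.05 it called 2 of 31 (HSPA5 and HERPUD1) against 4.46% of all genes. Of the 31, 26 were higher and 5 lower, and the median log2 fold change was 0.24 against 0.00 for all genes. On log2 of TPM + 1 the split was 18 higher and 13 lower, with 27.55% of all genes higher and their median at -0.17. The libraries did not overlap for 3 genes (ATF4, HERPUD1 and HSPA5, all higher), while 6.24% of all genes had every siNELFA library above siControl. Under the block 5 of 31 passed by edgeR, 16.1%, against 5.21% of all genes, and all 5 were higher. DESeq2 with the block called the same 5 and PSPH, where 1153 of 17727 genes were called. In the pairs, 19 genes were higher 3 times of 3 and 2 lower, while of the 12971 genes averaging at least 50 counts 25.2% were higher and 23.8% lower in all pairs. The 19 include CHAC1 and STC2, which average 41.6 and 15.6 counts and so are not in that background. Without replicate 1 the block called 10 of 31, against 15.7% of all genes, namely the same 5, SEL1L (0.46), DNAJC3 (0.29), DNAJB9 (0.61), HYOU1 (0.22) and, lower, PSPH (-0.52). Without replicate 2, and likewise without replicate 3, HSPA5, SLC3A2 and SLC7A5 passed, 3 of 31 against 3.56% and 3.65% of all genes. With no filter on low counts 9 passed against 5.40% of all genes, the same 5 and ATF4, CHAC1, HYOU1 and SEL1L.

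Other genes of the pathway were read the same way, in lists drawn up from general knowledge but with earlier results of these data known. Under the block 6 of 25 further genes of ER folding and degradation passed, against 5.21% of all genes. On the log2 scale DNAJB11 (0.59), SIL1 (0.59), SEC61A1 (0.40), PDIA6 (0.38) and P4HB (0.36) were higher and SSR1 (-0.48) lower. DNAJB11 and SIL1 are partners of HSPA5, SEC61A1 is the channel of the translocon, and PDIA6 and P4HB are disulphide isomerases. Of 23 further ATF4 targets, CTH (1.11), GDF15 (1.09), SLC6A9 (0.80) and SLC1A5 (0.65) rose and SLC7A11 (-0.73) fell, beside the same 5.21% of all genes. None of 13 aminoacyl-tRNA synthetases and none of 16 stress sensors and eIF2 factors passed by edgeR, with 5 and 4 at a nominal p under 0.05, where 20.2% of all genes were. No gene of the 4 lists passed without the block.

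**Figure D3:**
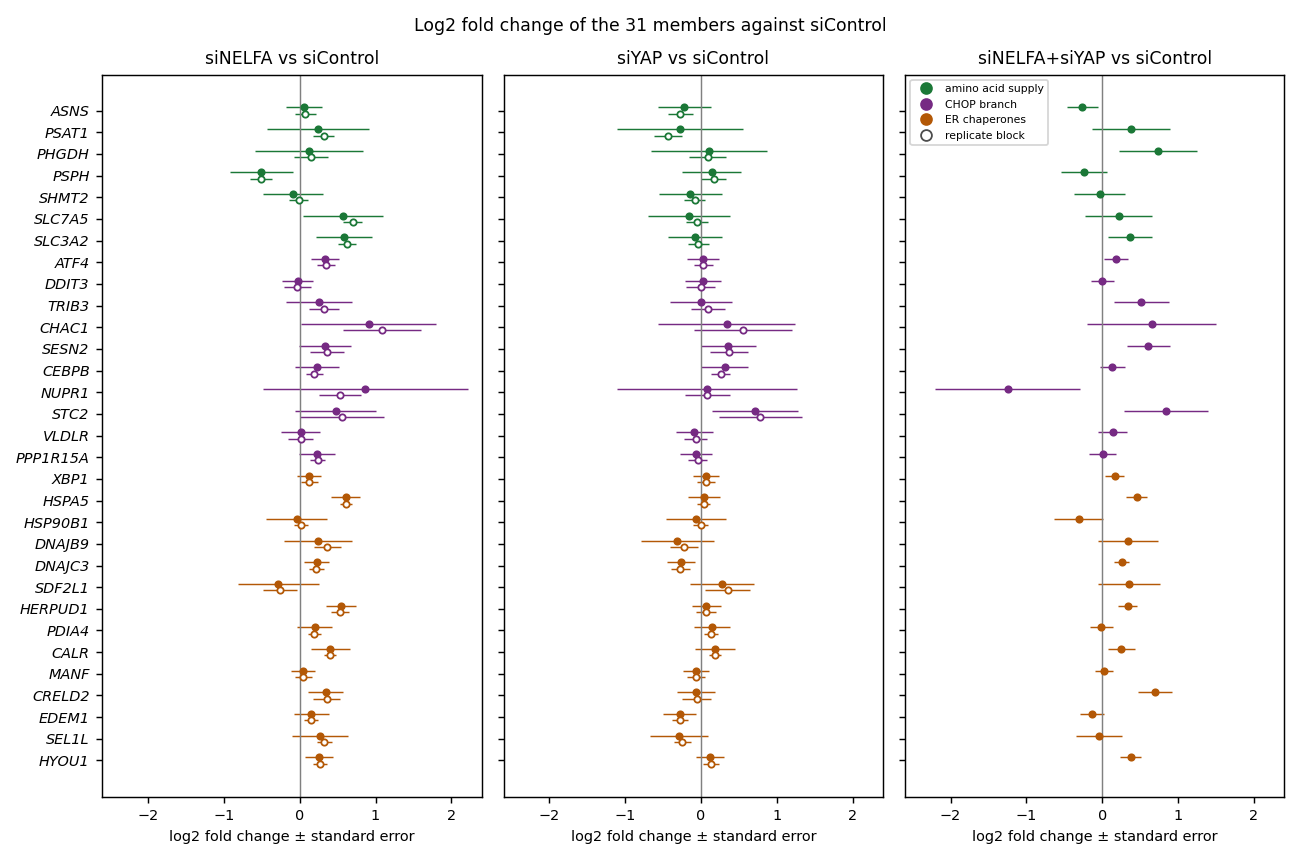
Log2 fold change against siControl of the 31 genes with its standard error, for siNELFA, siYAP and siNELFA+siYAP. Filled points are the fit without the block and open points the fit with the replicate block, which was not drawn for siNELFA+siYAP; HSPA5 keeps a value of 0.61 in both siNELFA fits while its standard error falls from 0.19 to 0.08.

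Knockdown of YAP left all 31 genes short of the adjusted threshold in both fits, blocked and not. HSPA5 was at 1505, 1102 and 1078 CPM in siYAP, close to its siControl libraries of the same number. HERPUD1 was at 48.3, 37.9 and 38.2 CPM, and SLC7A5 at 149.8, 410.3 and 274 CPM. SLC7A5 was thus above its siControl library in pair 1 and below it in pairs 2 and 3. DNAJC3, an inhibitor of PERK and cochaperone of HSPA5, was the only gene with every siYAP library below siControl, at 82.0, 114 and 106 against 115, 117 and 128 CPM. EDEM1, a lectin that marks glycoproteins for degradation, was at 212, 173 and 148 against 265, 189 and 189.9 CPM.

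The edgeR fit without the block called 0 of 31 against 0.00578% of all genes in siYAP, and at nominal p under 0.05 it called 0 against 1.30%. DESeq2 called 0. With the block 0 passed against 0.0173%, and 3 of 31 had a nominal p under 0.05, EDEM1 (-0.28), PSAT1 (-0.44) and CALR (0.18), where 9.11% of all genes did. Of the 31, 17 were higher and 14 lower, where 49.8% of all genes were higher, and the members' median log2 fold change was 0.03. A share of 3.64% of all genes had every siYAP library below siControl. In the pairs, PSAT1, DNAJC3, MANF, EDEM1 and SEL1L were lower 3 times of 3, against 20.3% of the 12971 genes, and CEBPB, XBP1, PDIA4 and CALR were higher, against 19.0%. Without replicate 1 the block called SLC7A5 (-0.28, edgeR adjusted p = 0.0298), where 1.62% of all genes passed.

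Because a call in one knockdown and none in the other does not show a difference, siNELFA was tested against siYAP directly. The block again changed the count, from 0 of 31 to 13 of 31 genes, where 15.8% of all genes passed with the block. Of the 13, 12 were higher in siNELFA and 1 lower. The 13 comprised 7 of 14 ER genes, 4 of 7 amino acid genes and 2 of 10 CHOP branch genes. HSPA5 was higher by 0.58 (SE 0.08, edgeR adjusted p = 9.52e-06), SEL1L by 0.57 (SE 0.08, adjusted p = 2.18e-05) and SLC7A5 by 0.75 (SE 0.08, adjusted p = 1.15e-06) on the log2 scale. SEL1L had 329, 201 and 195 CPM in siNELFA and 233, 136 and 126 CPM in siYAP, each pair well apart while the groups overlapped.

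SLC3A2 (0.66), DNAJC3 (0.49), EDEM1 (0.43), HERPUD1 (0.47), PSAT1 (0.69), the HSPA5 cochaperone DNAJB9 (0.58), ATF4 (0.32), PPP1R15A (0.28) and CALR (0.22) were also higher under the block. CALR passed narrowly (edgeR adjusted p = 0.0482). PSPH was lower by a log2 value of -0.67 (SE 0.13, edgeR adjusted p = 0.00122), with 11.4, 27.8 and 21.1 CPM in siNELFA and 19.7, 35.3 and 39.6 CPM in siYAP. For PSAT1 the pairs were uneven, with 21.1 against 6.34 CPM in pair 1 and 76.8 against 66.1 CPM in pair 2. For ATF4 pair 2 was almost level, at 152 against 151 CPM.

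Without the block, 0 of 31 passed against 0.0116% of all genes, and 3 had a nominal p under 0.05 (HSPA5, DNAJC3 and HERPUD1) against 5.63%. DESeq2 without the block called 0. Of the 31, 25 were higher and 6 lower in siNELFA without the block, where 49.2% of all genes were higher. On log2 of TPM + 1 the split was 19 higher and 12 lower, where 33.4% of all genes were higher. With the block the 13 genes were 41.9% of the 31, where 15.8% of all genes passed. Every siNELFA library lay above siYAP for ATF4, CRELD2, DNAJC3, HERPUD1 and HSPA5, against 6.17% of all genes, and below it for SDF2L1, against 6.35%. In the pairs 16 genes, CHAC1 outside that background among them, were higher 3 times of 3 and 2 were lower, while 27.5% of the 12971 genes were higher and 25.3% lower. The same 13 genes passed without replicate 1, against 14.8% of all genes. Without replicate 3 the count was 8, against 5.91% of all genes, with ATF4, CALR, DNAJB9, PPP1R15A and PSPH no longer past the threshold. With the 9 libraries of siControl, siNELFA and siYAP in 1 blocked fit, 10 of the 13 passed, where 1195 of 18193 genes did. ATF4, CALR and PPP1R15A did not, so no CHOP branch gene passed in that fit. Among the further genes, 14 of 25 of ER folding and degradation passed under the block, 13 higher (DERL2 0.52, DNAJB11 0.51 and SIL1 0.50 among them) and SSR1 lower (-0.36). Of the further ATF4 targets 13 of 23 passed, 10 higher, led by CTH (0.92), ATF3 (0.70) and ATF5 (0.69), and 3 lower, SLC7A11 (-0.54) among them. MARS (0.39) and WARS (0.34) were the 2 of 13 synthetases, and the protease MBTPS2 (0.40) and the PERK gene EIF2AK3 (0.38) the 2 of 16 sensors.

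**Figure D4:**
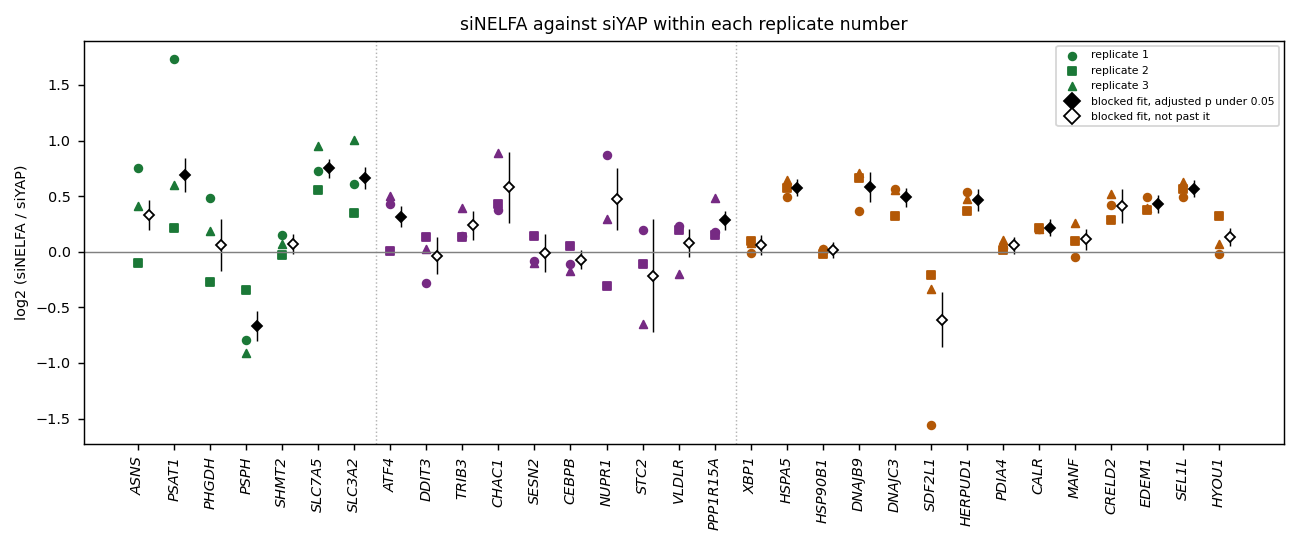
Log2 ratio of siNELFA to siYAP in each of the 3 replicate pairs for the 31 genes, with the blocked estimate as a diamond, filled where the adjusted p is under 0.05. HSPA5 and SEL1L lie above 0 in all pairs, and PSPH and SDF2L1 below it.

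With both knockdowns, the ER genes HSPA5, CRELD2, DNAJC3, HERPUD1 and HYOU1 stood above siControl in every library, and no gene of the 31 passed the adjusted threshold until siControl replicate 1 was set aside. HSPA5 had 1616, 1693 and 1636 CPM in siNELFA+siYAP, above all siControl libraries. CRELD2, an ER-resident isomerase induced by stress, had 17.2, 24.0 and 23.9 CPM against 9.95, 13.6 and 16.0 CPM. DNAJC3 had 143, 144 and 145 CPM against 115, 117 and 128 CPM. Against all 3 siControl libraries the log2 fold changes were 0.46 (SE 0.14, adjusted p = 0.157) for HSPA5 and 0.70 (SE 0.22, adjusted p = 0.176) for CRELD2 by edgeR, and neither passed.

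In siNELFA+siYAP against siControl the edgeR fit called 0 of 31 past the adjusted threshold (0.428% of all genes), and DESeq2 called 0. At nominal p under 0.05 there were 5 of 31, HSPA5, CRELD2, HYOU1, HERPUD1 and DNAJC3, all ER genes and all higher, against 18.5% of all genes. Of the 31, 23 were higher and 8 lower, at a median of 0.22 against -0.03 for all genes. Every siNELFA+siYAP library lay above siControl for 7 genes (those 5, SESN2 and SLC3A2), against 15.9% of all genes. Without siControl replicate 1 the count was 14 of 31, where 24.4% of all genes passed, comprising 10 of 14 ER genes, all higher, 1 of 10 CHOP branch genes and 3 of 7 amino acid genes, all lower. DNAJB9 (0.89), HSPA5 (0.60), CRELD2 (0.55), CALR (0.48), SEL1L (0.43) and HERPUD1 (0.41) rose most on that log2 scale, and HYOU1, DNAJC3, HSP90B1, the disulphide isomerase PDIA4 and the bZIP factor CEBPB rose by 0.17 to 0.31. PSPH (-0.53), ASNS (-0.42) and SHMT2 (-0.36) fell there.

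The last question was whether the second knockdown changed what the first did. Against siNELFA alone, siNELFA+siYAP had 15 genes higher and 16 lower with a median log2 difference of -0.00, where 48.5% of all genes were higher. The edgeR and DESeq2 fits called 0 of 31 (0.00573% of all genes by edgeR), and 0 had a nominal p under 0.05 (6.62%). ATF4 was the only gene with every siNELFA+siYAP library below siNELFA, at 146, 144 and 139.9 CPM against 153, 152 and 169 CPM, where 7.41% of all genes did so. Without siNELFA replicate 1, SLC7A5 (-0.65, edgeR adjusted p = 0.000612) and SLC3A2 (-0.42, adjusted p = 0.0437) were lower in siNELFA+siYAP, against 1.25% of all genes called. SLC7A5 was at 360.2, 365 and 359 CPM there, between the siNELFA replicate 1 library at 248 CPM and the others at 604 and 529 CPM.

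Against siYAP alone, siNELFA+siYAP had 24 genes higher and 7 lower, at a median log2 difference of 0.16, where 46.6% of all genes were higher. On log2 of TPM + 1 the split was 20 higher and 11 lower, where 43.3% of all genes were higher. No gene of the 31 passed by edgeR (0.0350% of all genes), while DESeq2 called DNAJC3 and CRELD2, 2 of 31 against 4.49% of all genes. Nominal p was under 0.05 for CRELD2 (0.77), DNAJC3 (0.52), TRIB3 (0.52), HSPA5 (0.42) and HYOU1 (0.26), 5 of 31 against 15.5% of all genes. Every siNELFA+siYAP library lay above siYAP for 8 genes (those 5, DNAJB9, HERPUD1 and SLC3A2), against 13.8%. Without siYAP replicate 1, 10 of 31 passed, where 16.5% of all genes did, 9 ER genes higher, led by DNAJB9 (1.01), CRELD2 (0.73) and HSPA5 (0.60), and PSPH lower (-0.62). The interaction, which asks whether the siNELFA effect differed with and without siYAP, had 0 of 31 genes past the adjusted threshold by edgeR and by DESeq2 and 0 at nominal p under 0.05, against 0% and 1.76% of 18525 genes.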

How the data were processed

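The authors sequenced rRNA-depleted, stranded total RNA libraries, aligned them to GRCh38 by STAR and counted reads per gene with featureCounts. The deposited counts are unnormalized. The deposited TPM values, scaled by the authors for length and depth, served for comparing genes and as an alternative, and 12 FPKM columns were not used.

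CPM values use TMM factors. Each pair of groups was compared by edgeR 4.0.16 (quasi-likelihood test, TMM, filterByExpr with 10 counts, a total of 15 and 70% of a group) in R 4.3.3 on its 6 libraries, and the interaction on all 12, with Benjamini-Hochberg adjustment over all tested genes. Alternatives were DESeq2 1.42.0, RLE factors, no filter, all libraries in 1 fit, limma 3.58.1 on log2-transformed TPM (pseudocount 1 or 0.1), a replicate block, and leaving out libraries. Settings of the blocked fits were added after the data were seen. The scripts were tested on simulated data. Figures used matplotlib 3.10.9 under Python 3.11.15.

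The numbers come from the labels. Deviations of same-numbered libraries from their group means had r = 0.642 to 0.886 over 12971 genes within siControl, siNELFA and siYAP. Between replicates 2 and 3 of different groups among these, r was 0.428 to 0.498, so the margin for pairing those 2 numbers was smaller. For same-numbered libraries of which one was siNELFA+siYAP, r was only -0.0523 to 0.0256, so the numbers pair the first 3 groups only.

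The members and lists were chosen with earlier results of these data known. All members are named, and other pathway genes only past the adjusted threshold, at most 6 per list. Promoter and motif coordinates are of GRCh38.p14 from RefSeq, and motif positions count from the RefSeq start. The span of the HSPA5 gene is from GENCODE, where the gene starts at another base. Neither source is the authors' annotation. The floor is 3 counts in a library, for counting error only.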

Additional observations from a re-analysis of the deposited data

Results flagged for a closer look

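For 4 genes siNELFA and siYAP lay on opposite sides of the siControl library of the same number in all 3 pairs, siNELFA above and siYAP below. Some pairs were almost level with siControl, with siNELFA at 1.02-fold for EDEM1 in pair 3 and for PSAT1 in pair 2. In siYAP, DNAJC3 was at 0.977-fold in pair 2. These 4 were chosen for that pattern, whose share among all genes was not counted. Their differences between the knockdowns under the replicate block come from the same pairs, so they describe the pattern and are given without a test. SEL1L differed by 0.57 on the log2 scale (SE 0.08), with blocked values of 0.33 in siNELFA and -0.24 in siYAP against siControl. DNAJC3 differed by 0.49 (SE 0.09), with 0.22 and -0.27. EDEM1 differed by 0.43 (SE 0.08), with 0.15 and -0.28. PSAT1 differed by 0.69 (SE 0.15), with 0.31 and -0.44. With all libraries and the filter on low counts, none of the 4 passed against siControl in either knockdown. In siNELFA under the block, SEL1L and DNAJC3 passed without replicate 1, and SEL1L also with no filter on low counts.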

How the results depend on the processing

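The replicate block raised the count of genes past the adjusted threshold from 0 to 5 in siNELFA against siControl and from 0 to 13 in siNELFA against siYAP, and changed no other call count. For the first, the blocked count was 9 with no filter on low counts (5.40% of all genes called) and 3 to 10 when replicates were left out in turn (3.56% to 15.7%). DESeq2 with the block added PSPH to the 5 there (1153 of 17727 genes called). For the second, leaving out replicates gave 8 to 13 (5.91% without replicate 3). Under the block it was 10 with 9 libraries in 1 fit (1195 of 18193 genes called). DESeq2 with the block gave 12, without PSAT1 (1955 of 17257), and RLE factors 12, without CALR (2751 of 17257). For siYAP against siControl, leaving out replicates gave 0 to 1. Leaving out 1 library without the block gave 0 to 14 genes for siNELFA+siYAP against siControl, 0 to 2 against siNELFA and 0 to 10 against siYAP, the highest each time without replicate 1 of the other group. With replicates 2 and 3 of both groups these counts were 10, 1 and 7 (17.9%, 0.157% and 7.70% of all genes), and DESeq2 gave 2 for the last (4.49%).

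On log2 of TPM the median of all genes in siNELFA against siControl shifted by -0.17, and the members' median was 0.0798 and 0.0821 with pseudocounts of 1 and 0.1 (18 higher, 13 lower), at the first 0.25 above all genes. The members' median there was 0.0696 and 0.0528 in siNELFA against siYAP, where all genes had -0.115 and -0.137. In siNELFA+siYAP it was 0.14 against siControl (all genes -0.107 at a pseudocount of 1). Against siNELFA it was 0.0745 and 0.0757, close to all genes at 0.0595 and 0.0748. Against siYAP it was 0.0894 and 0.0916, with all genes at -0.0463 and -0.0529. Leaving out 1 library moved the members' median from -0.0866 to 0.0168 against siNELFA and from 0.14 to 0.21 against siYAP. CALR in siNELFA against siYAP ranged from -0.0313 without siNELFA replicate 1 to 0.467 without siYAP replicate 1. The causes were not tested. Of the remaining values for single genes 466 kept their direction and their side of the threshold, 36 passed newly and 15 no longer passed.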
